A study of Arabidopsis thaliana with 10 samples.

Results

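MGL, AHASS1 and DHAD are 3 Arabidopsis thaliana genes on the route that supplies and builds isoleucine, valine and leucine. They were chosen by locus, MGL as AT1G64660, AHASS1 as AT2G31810 and DHAD as AT3G23940. This choice was made with earlier results of these data known. Shares of all probe sets given beside these genes below are therefore a description and no independent test. They are 3 of the 13350 genes that the name table gives a probe set to themselves, and each has 1. All 3 passed the filter on dim signals, which kept 17059 of 22746 probe sets. The name table pairs the first probe set with the symbol MGL and the others with their loci only.

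Messenger RNA of whole plants was measured on 10 ATH1 arrays, a short-oligonucleotide array of Affymetrix, in 5 groups of 2 biological replicates. Boron-deficient plants had been watered without boron for 2 days (age 19 days) or 4 days (age 21 days), calcium-deficient plants without calcium for 2 days (age 19 days), and control plants of both ages with the complete solution. Until the change of solution every group had received 25 µM boron and 3 mM calcium, on perlite. The ages are those at sampling, since the sources differ on the age at which treatment began. No genotype or ecotype is given in the sources used here, and since whole plants were extracted, fewer cells of a type and less RNA per cell cannot be told apart.

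The carbon skeleton of isoleucine begins with 2-oxobutyrate. Plants make it from threonine by threonine deaminase, and also from methionine by methionine gamma-lyase, the enzyme encoded by MGL, which splits methionine into methanethiol, ammonia and 2-oxobutyrate. In the plastid, acetohydroxyacid synthase then joins 2-oxobutyrate or pyruvate with an acetaldehyde unit taken from pyruvate; its catalytic subunit works with a regulatory subunit, such as the one encoded by AHASS1, through which the end products inhibit the enzyme. Ketol-acid reductoisomerase and dihydroxyacid dehydratase, the iron-sulphur enzyme encoded by DHAD, continue the parallel routes to isoleucine and to valine, and branched-chain aminotransferases complete them.

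Deposited signals had medians between 115 and 121 at 2 days and between 232 and 243 at 4 days, so the 10 arrays were brought together by quantile normalization, and signals below are normalized values on a linear scale unless called deposited. Log2 changes are on the scale of log2(signal + 16), each with its standard error (SE) or the 95% confidence interval of the fit, called 95% interval below. Adjusted p-values are those of limma over the 17059 probe sets, with 0.05 as the threshold. Replicate arrays correlated with Spearman coefficients of 0.959 in control plants of 2 days, the lowest of the 5 groups, to 0.989 in calcium-deficient plants. Root and shoot markers were both present. The summed signal of 3 root markers (PYK10, EXPA7 and EXPA18, of 9 listed) was 2508 to 3334 in boron-deficient and 3089 to 4137 in calcium-deficient plants of 2 days, against 1615 to 1889 in their controls. At 4 days it was 4136 to 4301 in boron-deficient and 4424 to 4625 in control plants. That of 3 shoot markers (RCA, LHCB4.1 and PRK, of 9 listed) was 32436 to 34091 in boron-deficient and 26239 to 28987 in calcium-deficient plants of 2 days, against 32556 to 36362 in their controls, and 38023 to 38299 in boron-deficient plants of 4 days, against 36604 to 36833 in theirs. No marker was at 0, and the lowest single value was 66.4. Of the root markers only PYK10 passed at 2 days, at log2 changes of 0.73 without boron (adjusted p = 0.0375) and 1.09 without calcium (0.00379). EXPA7 stood at 0.43 and 0.14 and EXPA18 at 0.72 and 0.34, with an adjusted p of 0.108 to 0.633. Of the shoot markers RCA (−0.49, adjusted p = 0.00894) and PRK (−0.69, 0.00309) fell without calcium and LHCB4.1 stood at −0.012, while none of the 3 passed without boron. The part of these markers in the results below was not tested.

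The first comparison asked how these transcripts stood after 2 days without boron. MGL and AHASS1 fell and DHAD rose in boron-deficient plants. All 3 therefore passed the threshold, as did 8.52% of all probe sets, 2.72% with a lower and 5.8% with a higher signal. The groups did not overlap in any of the 3, which was also so for 47.9% of all probe sets.

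MGL, on the methionine branch of isoleucine supply, had signals of 197 and 321 in boron-deficient plants, against 1427 and 1966 in control plants. Both deficient arrays lay far below both controls. The fall was 6.30-fold (log2 change −2.66, SE 0.28, 95% interval −3.29 to −2.03, adjusted p = 0.00188). It was the 9th largest fall of the table. With any single array left out the change stayed between −2.99 and −2.32 and passed, and it also passed under the 9 other settings tried.

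AHASS1, at the entry of the shared route, had signals of 2476 and 1700 in boron-deficient plants, against 3164 and 4473 in control plants. The groups did not overlap, but replicates within each group lay 0.54 (boron-deficient) and 0.50 (control) apart on the log2 scale. The log2 change was −0.87 (SE 0.21, 95% interval −1.34 to −0.40, adjusted p = 0.0357), a 1.83-fold fall. The call held without control 2 d replicate 1 or boron-deficient 2 d replicate 1. It was lost without any other single array, with an adjusted p of 0.0517 to 0.138 in those 8 cases, at −0.62 without control 2 d replicate 2 and −0.60 without boron-deficient 2 d replicate 2. With the replicate number as a block its adjusted p was 0.0503.

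DHAD, further along the route, had signals of 1095 and 888 in boron-deficient plants, against 558 and 548 in control plants. Here the controls were nearly equal and the deficient plants stood above them. The rise was 1.76-fold (log2 change 0.82, SE 0.16, 95% interval 0.45 to 1.19, adjusted p = 0.0192). Leaving out control 2 d replicate 2 gave 0.80 and leaving out boron-deficient 2 d replicate 1 gave 0.67, neither past the threshold (adjusted p of 0.0545 and 0.0657). It held without each of the other 8 arrays. In a fit restricted to the 2-day arrays its adjusted p was 0.0553.

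**Figure D1:**
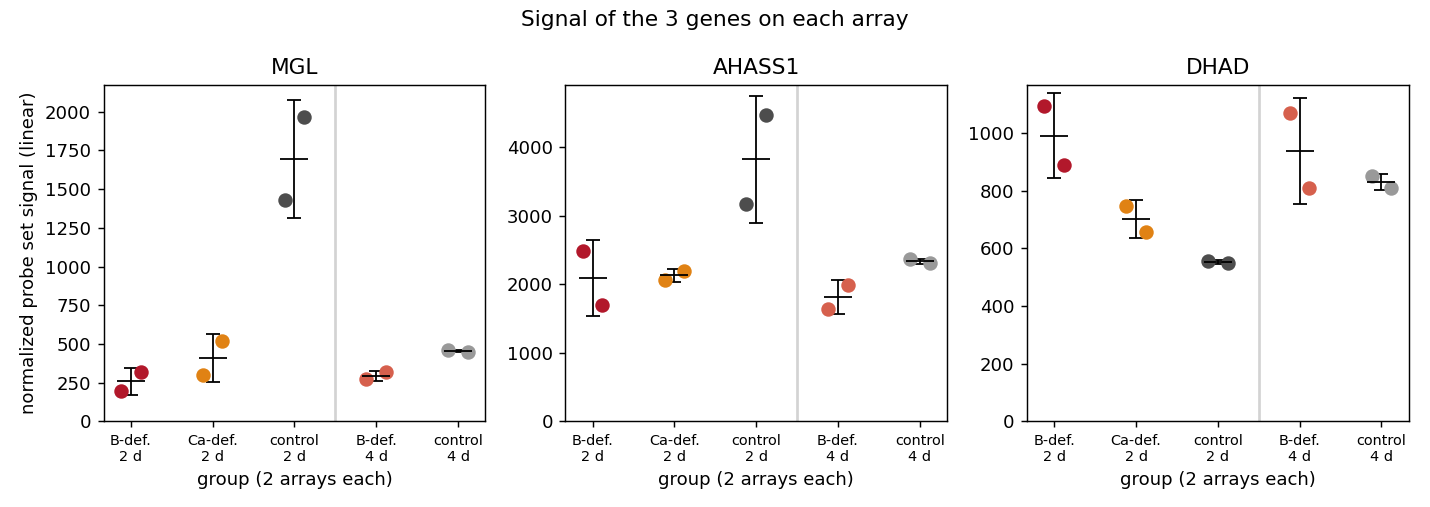
Normalized probe set signal (linear scale, from 0) of MGL, AHASS1 and DHAD in boron-deficient (B-def.), calcium-deficient (Ca-def.) and control plants; points are arrays, bars the mean ± SD of 2 arrays, and the vertical line parts 2 from 4 days. The control plants of 2 days have the highest means of MGL (1697) and AHASS1 (3819) and the lowest of DHAD (553).

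The same question was put for 2 days without calcium, against the same control arrays, so the results for boron and calcium are not independent. MGL and AHASS1 fell in calcium-deficient plants, and DHAD did not pass. That is 2 of 3 past the threshold, both lower, while 21.7% of all probe sets passed, 9.93% with a lower and 11.8% with a higher signal. Calcium-deficient and control arrays did not overlap for any of the 3, nor for 60.7% of all probe sets.

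MGL had signals of 300 and 518 in calcium-deficient plants, against 1427 and 1966 in control plants, a 4.12-fold fall (−2.04 on the log2 scale, SE 0.28, 95% interval −2.67 to −1.41, adjusted p = 0.00199). It passed without each array in turn (−2.42 to −1.66) and under the 9 other settings. The calcium-deficient replicates of MGL differed by 0.76 on the log2 scale, a gap at the 99.8th percentile of all probe sets in that group. In boron-deficient plants of 2 days the gap was 0.66, at the 93.8th percentile. The fall was larger than these gaps.

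AHASS1 had signals of 2063 and 2198 in calcium-deficient plants, against 3164 and 4473 in control plants. The calcium-deficient arrays were close to each other and the controls were not. The fall was 1.76-fold (log2 change −0.82, SE 0.21, 95% interval −1.29 to −0.35, adjusted p = 0.0229). Leaving out control 2 d replicate 2 gave −0.56, and leaving out calcium-deficient 2 d replicate 1 or 2 gave −0.77 or −0.86, none past the threshold (adjusted p of 0.104, 0.140 and 0.0850). In a fit restricted to the 2-day arrays its adjusted p was 0.0664.

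DHAD had signals of 748 and 657 in calcium-deficient plants, against 558 and 548 in control plants. Both lay above the controls, but the log2 change of 0.33 (SE 0.16, 95% interval −0.03 to 0.70) had an adjusted p of 0.173. It passed in none of the 10 cases with an array left out and none of the 9 other settings.

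**Figure D2:**
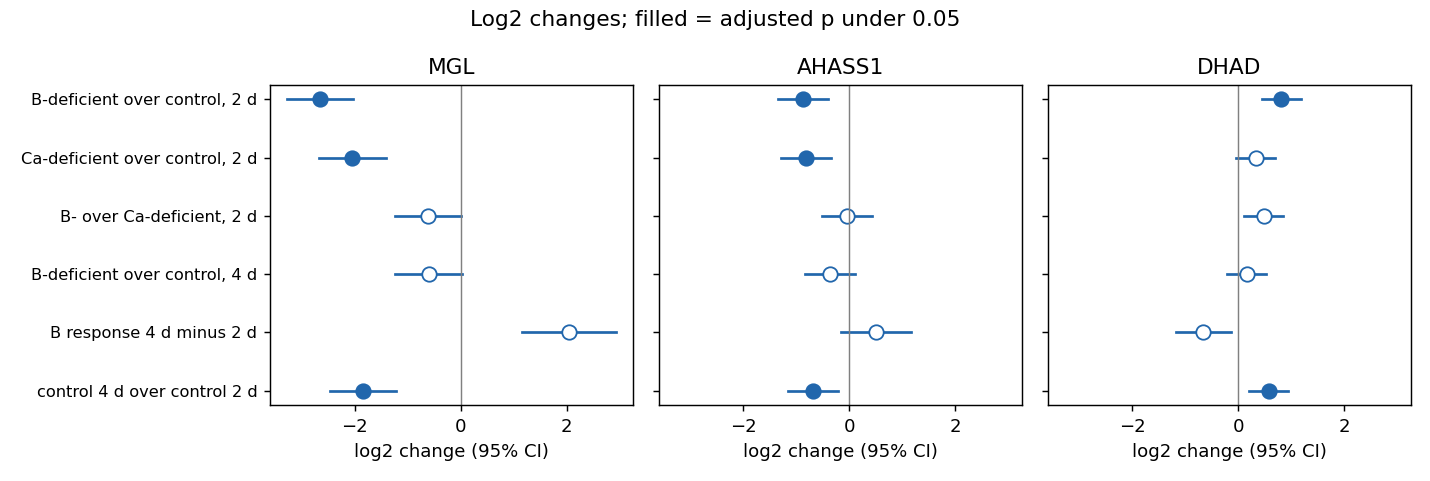
Log2 change (x axis) of MGL, AHASS1 and DHAD in 6 contrasts (rows; B, boron; Ca, calcium); points are limma estimates, lines their 95% confidence intervals, and filled points have an adjusted p under 0.05. MGL lies at −2.66 and −2.04 in the deficiencies of 2 days, and the 3 genes have open points at 4 days.

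Boron and calcium deficiency at 2 days were then compared directly. None of the 3 genes passed by limma, as against 10.5% of all probe sets, and 1 of the 3 had an unadjusted p under 0.05, as did 25.9% of all probe sets. MGL was lower without boron than without calcium by 0.61 on the log2 scale, but the arrays overlapped (197 and 321 in boron-deficient plants, against 300 and 518 in calcium-deficient plants) and the adjusted p was 0.204 (95% interval −1.24 to 0.01). With a single array left out this difference ran from −0.99 (without calcium-deficient 2 d replicate 1) to −0.24 (without calcium-deficient 2 d replicate 2), and it was −0.28 and −0.95 without boron-deficient 2 d replicate 1 and 2. For AHASS1 the difference was −0.05 (95% interval −0.52 to 0.42, adjusted p = 0.904). It turned to 0.21 without boron-deficient 2 d replicate 2 and to 0.02 with the values as deposited. DHAD had the unadjusted p under 0.05 (0.0156): it stood at 1095 and 888 in boron-deficient plants, against 748 and 657 in calcium-deficient plants. These arrays did not overlap, as in 57.7% of all probe sets, and the log2 difference was 0.48 (SE 0.16, 95% interval 0.11 to 0.85, adjusted p = 0.0962). DHAD thus passed under boron loss and not under calcium loss, while the difference between the deficiencies did not pass.

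After 4 days without boron none of the 3 genes passed by limma, and none had an unadjusted p under 0.05 in the fit of all 10 arrays. Among all probe sets 0.00586% passed and 4.25% had an unadjusted p under 0.05. Boron-deficient and control arrays did not overlap for MGL and AHASS1, as for 42.4% of all probe sets. MGL had signals of 272 and 316 in boron-deficient plants, against 461 and 449 in control plants (log2 change −0.61, SE 0.28, 95% interval −1.24 to 0.02, adjusted p = 0.9996). A 2-fold fall lies within that interval, whose SE rests on all 10 arrays. AHASS1 had 1632 and 1983 in boron-deficient plants, against 2360 and 2303 in control plants (log2 change −0.37, 95% interval −0.84 to 0.10). In a limma fit restricted to the 4-day arrays the SE was smaller, at 0.12 for both genes. MGL then stood at −0.61 and AHASS1 at −0.36, and neither passed (adjusted p = 0.365 and 0.453). DHAD had 1070 and 808 in boron-deficient plants, against 851 and 812 in control plants. Its deficient replicates lay on either side of the controls, and the log2 change of 0.16 (95% interval −0.21 to 0.53) turned to −0.04 without boron-deficient 4 d replicate 1.

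Whether the boron response itself differed between the days was tested as the response at 4 days minus that at 2 days. No member passed by limma, as against 0.229% of all probe sets, and 2 of the 3 had an unadjusted p under 0.05, as did 13.3% of all probe sets. The difference was 2.05 for MGL (SE 0.40, 95% interval 1.16 to 2.94, adjusted p = 0.0736), where a positive value stands for a smaller fall at 4 days. Without control 2 d replicate 1 it was 2.27 and passed (adjusted p = 0.0372). For AHASS1 it was 0.50 (95% interval −0.17 to 1.16, adjusted p = 0.512), and it ran from 0.23 without boron-deficient 2 d replicate 2 to 0.77 without boron-deficient 2 d replicate 1, with 0.24 without control 2 d replicate 2 and 0.74 without control 2 d replicate 1. For DHAD it was −0.66 (95% interval −1.18 to −0.14, adjusted p = 0.271).

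The levels over the 5 groups were also set in order of their means. The control plants of 2 days were at one end of the order for each of the 3 genes. MGL averaged 259 ± 87.8 in boron-deficient plants of 2 days, 294 ± 31.3 in boron-deficient plants of 4 days, 409 ± 154 in calcium-deficient plants, 455 ± 8.94 in control plants of 4 days and 1697 ± 381 in control plants of 2 days (SD, n = 2 each). Of the neighbours in this order only the controls of 4 and 2 days differed (log2 change −1.84, adjusted p = 0.000990); the other neighbours lay 0.20 to 0.41 apart on the log2 scale, with an adjusted p of 0.279 to 0.630.

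AHASS1 averaged 1808 ± 248 in boron-deficient plants of 4 days, 2088 ± 549 in boron-deficient plants of 2 days, 2130 ± 95.4 in calcium-deficient plants, 2331 ± 40.8 in control plants of 4 days and 3819 ± 926 in control plants of 2 days (SD, n = 2 each). Again only the controls of 4 and 2 days differed among neighbours (log2 change −0.69, adjusted p = 0.0294). That call was lost without control 2 d replicate 2 (−0.43) and without control 4 d replicate 1 (−0.71) or replicate 2 (−0.67). DHAD averaged 992 ± 146 in boron-deficient plants of 2 days, 939 ± 185 in boron-deficient plants of 4 days, 831 ± 27.8 in control plants of 4 days, 703 ± 64.8 in calcium-deficient plants and 553 ± 6.62 in control plants of 2 days (SD, n = 2 each). No neighbours in the DHAD order differed past the threshold. Its controls of 4 days were above those of 2 days (log2 change 0.57, adjusted p = 0.0229), a call lost without control 2 d replicate 1 (0.59) or replicate 2 (0.56) and without control 4 d replicate 1 (0.54) or replicate 2 (0.61).

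Between the controls, then, MGL and AHASS1 were lower and DHAD was higher at 4 days, while 35.9% of all probe sets passed between the controls, 17% lower and 18.9% higher at 4 days. This comparison shares the control arrays of 2 days with the deficiency comparisons of that day. Side by side, MGL changed by −1.84 between the controls, −2.66 without boron and −2.04 without calcium, AHASS1 by −0.69, −0.87 and −0.82, and DHAD by 0.57 and 0.82 in the first 2, with 0.33 without calcium. Days differ in age and in the medians of the deposited signals, and any difference in array processing goes with the day. These cannot be told apart. With the values as deposited the AHASS1 difference was 0.08, DHAD stood at 1.52 and MGL at −0.97. The comparisons within a day set arrays of the same day against each other, but their normalization and SE draw on the arrays of both days.

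A ratio of probe sets within an array is free of any scaling of whole arrays. Its level has no meaning of its own, since probe sets differ in brightness, but its shift between groups shows unequal change. On deposited signals the log2 ratio of DHAD over AHASS1 was −1.22 and −1.001 in boron-deficient and −1.46 and −1.77 in calcium-deficient plants of 2 days, against −2.62 and −3.21 in control plants. The deficient arrays all lay above the controls, and the group means differed by 1.80 for boron and 1.30 for calcium. At 4 days the ratio was −0.56 and −1.25 in boron-deficient plants, against −1.41 and −1.47 in control plants, a shift of 0.53. The ratio of MGL over AHASS1 was −3.72 and −2.47 in boron-deficient and −2.77 and −2.12 in calcium-deficient plants of 2 days, against −1.20 and −1.23 in control plants. MGL thus stood lower relative to AHASS1 in all 4 deficient arrays of 2 days. At 4 days this ratio was −2.46 and −2.61 in boron-deficient plants, against −2.27 and −2.31 in control plants. These ratios are given as values, with no test.

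**Figure D3:**
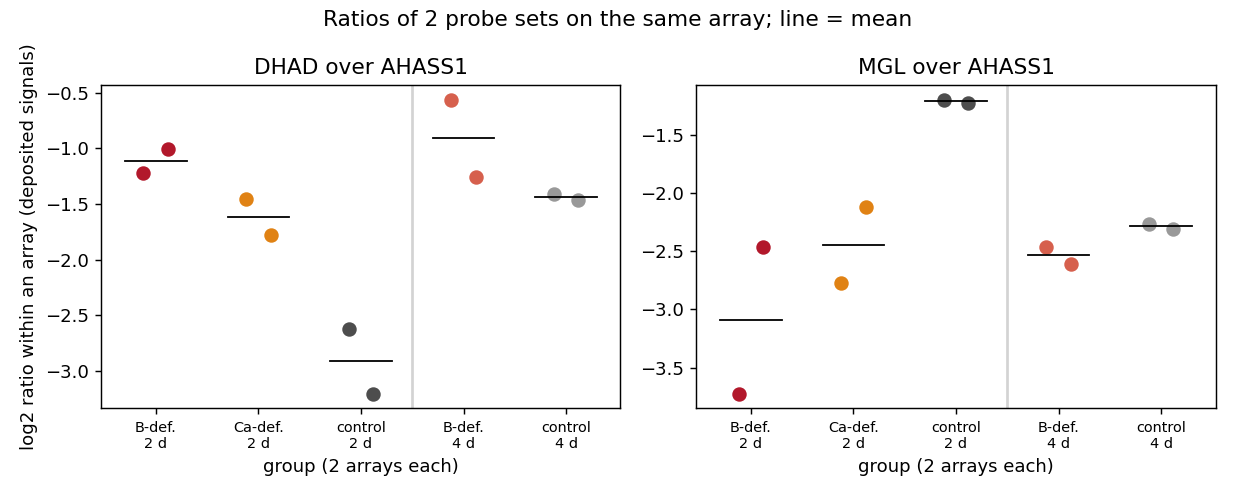
Log2 ratio of the deposited signals of DHAD over AHASS1 (left) and of MGL over AHASS1 (right) on each array, by group (B-def., boron-deficient; Ca-def., calcium-deficient); points are arrays, lines group means. The controls of 2 days lie lowest on the left (mean −2.92) and highest on the right (mean −1.21).

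Other genes of the pathway were taken from 3 lists, for synthesis of the branched-chain amino acids, for threonine and for methionine. The lists, too, were chosen with earlier results of these data known. Of their 57 entries 12 had a probe set named for them alone, and these 12 passed the filter. The other entries were not analysed here, so the 12 do not cover every step of the route described above. Besides MGL, AHASS1 and DHAD that leaves 9 genes. After 2 days without boron 2 of the 9 rose and none fell, while 5.8% of all probe sets rose and 2.72% fell. An unadjusted p under 0.05 was found for 7 of the 9, as for 26.5% of all probe sets. The median log2 change of the 9 was 0.42, against −0.02 over all probe sets.

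AT1G72810, on the threonine list, had signals of 286 and 323 in boron-deficient plants, against 192 and 168 in control plants (log2 change 0.71, SE 0.15, adjusted p = 0.0234). AT1G50110, on the synthesis list, had 167 and 178 in boron-deficient plants, against 119 and 126 in control plants (log2 change 0.45, SE 0.10, adjusted p = 0.0312). Both rises were small beside the fall of MGL. The call of AT1G72810 was lost without control 2 d replicate 2 (0.62) and without boron-deficient 2 d replicate 2 (0.63). That of AT1G50110 was lost in 8 of the 10 cases with an array left out, all but those without a control array of 2 days. The other 7 genes did not pass. Those on the synthesis list were AT3G58610 at 0.42 (adjusted p = 0.0765) and the aminotransferase gene BCAT5 at 0.38 (adjusted p = 0.147). AT1G14810 of the threonine list was at 0.34. On the methionine list, MMT, whose enzyme methylates methionine to S-methylmethionine, was at 0.43, and CBL, cystathionine beta-lyase of methionine synthesis, at 0.43. HMT-1, a homocysteine S-methyltransferase gene, was at 0.14, and ARD4 at −0.23. Without a single array BCAT5 (control 2 d replicate 1) and MMT (boron-deficient 2 d replicate 1) passed, at 0.59 and 0.68. They stood at 0.16 without control 2 d replicate 2 (BCAT5) and 0.19 without boron-deficient 2 d replicate 2 (MMT), and CBL ran from 0.26 to 0.60 without passing.

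Under calcium loss 1 of the 9 rose and none fell, a share near the 11.8% of all probe sets that rose, while 9.93% of them fell. The median log2 change of the 9 was 0.21, against −0.02 over all probe sets. MMT had signals of 686 and 571 in calcium-deficient plants, against 427 and 382 in control plants (log2 change 0.61, SE 0.17, adjusted p = 0.0336), a call lost in 7 of the 10 cases with an array left out (0.48 to 0.74 over the 10). CBL stood at 0.45 (adjusted p = 0.0650) and AT1G72810 at 0.39 (adjusted p = 0.0960). CBL passed without boron-deficient 2 d replicate 1 (adjusted p = 0.0410) or replicate 2 (0.0406), and HMT-1 without control 2 d replicate 2 (0.0170). Between boron and calcium deficiency none of the 9 passed by limma, as against 10.5% of all probe sets, with log2 differences of −0.18 to 0.33. An unadjusted p under 0.05 was found for 3 of the 9, as for 25.9% of all probe sets. After 4 days without boron none passed and none had an unadjusted p under 0.05, with log2 changes of −0.08 to 0.27 and a median of 0.04. In control plants of 4 days 5 of the 9 were higher than in those of 2 days and none was lower, while 18.9% of all probe sets were higher and 17% lower. The median log2 difference of the 9 was 0.41, against −0.0055 over all probe sets.

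**Figure D4:**
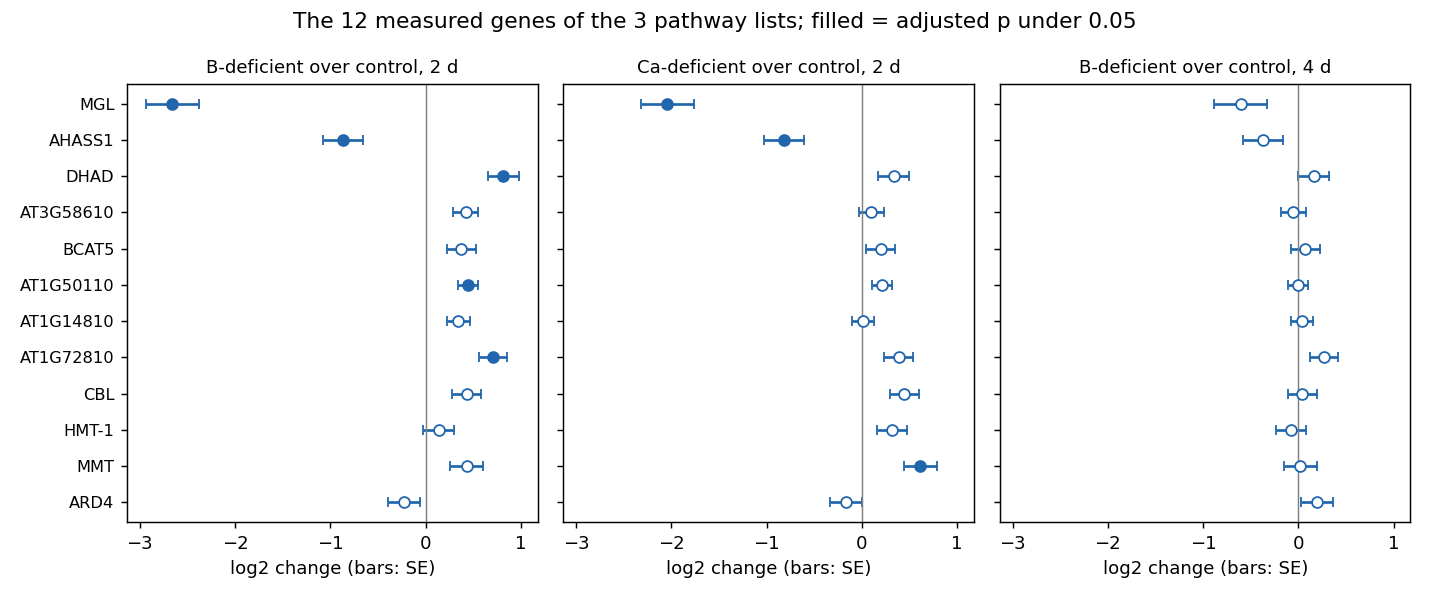
Log2 change (x axis, bars ± SE of limma) of the 12 measured genes of the pathway lists (rows) for boron-deficient over control plants at 2 days, calcium-deficient over control plants at 2 days and boron-deficient over control plants at 4 days; filled points have an adjusted p under 0.05. MGL at −2.66 and −2.04 lies farthest from 0, and the points at 4 days are all open.

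The pattern of each gene over the 10 arrays was set against 9459 other single-gene probe sets, as a description. All points come from the same 10 arrays, and the control plants of 2 days lie at one end of the order for each of the 3 genes. For MGL the highest Pearson correlations were those of AT3G10770 (0.96), AT2G35170 (0.96), AT4G13530 (0.94), AT1G76920 (0.94) and AT1G18270 (0.93), and 19 genes were above 0.9. AHASS1 was followed most closely by AT5G26740 (0.99), SDP1 (0.99), a triacylglycerol lipase gene, AT1G27100 (0.97), AT1G02660 (0.96) and AT4G00590 (0.96), with 52 genes above 0.9. DHAD was followed by AT3G53190 (0.97), AT2G22230 (0.97), IQD30 (0.96), AT5G26670 (0.96) and GSTU20 (0.96), a tau class glutathione transferase gene, with 41 above 0.9. Over the 6 arrays of 2 days alone these 15 genes had correlations of 0.95 to 0.995.

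**Figure D5:**
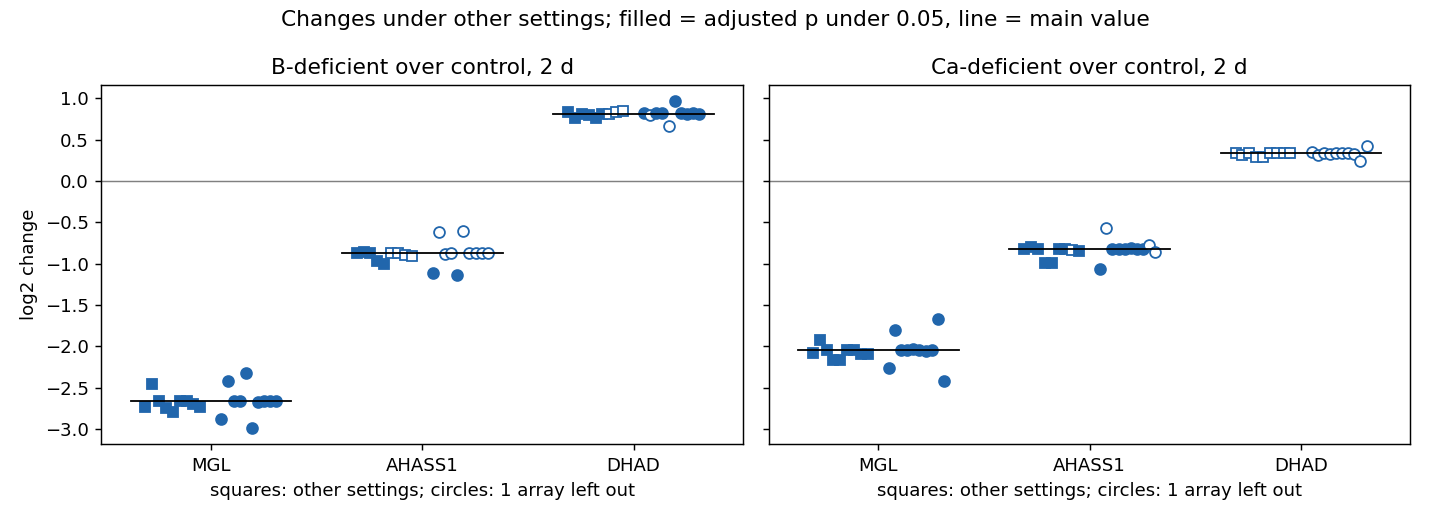
Log2 change of MGL, AHASS1 and DHAD for boron-deficient over control (left) and calcium-deficient over control plants (right) at 2 days under 9 other settings (squares) and with each of 10 arrays left out (circles); filled points have an adjusted p under 0.05 and lines mark the reported value. MGL is filled throughout, AHASS1 is filled in 2 of 10 circles on the left and 7 of 10 on the right, and DHAD is open throughout on the right.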

How the data were processed

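The 10 ATH1 arrays of whole plants were analysed, 2 per group. The authors deposited linear intensity values per probe set, for which the submitters' processing notes name GCOS 1.4; scaling target and genome build: not given in the sources used here. After quantile normalization of all arrays, 16 was added to each signal before log2, and the dimmest 25% of probe sets by mean (5687 of 22746) were dropped. Tests used limma 3.58.1 (R 4.3.3, group means, 5 residual degrees of freedom, intensity trend, Benjamini-Hochberg over 17059 probe sets). They were checked on simulated data with the same spread in every group, so unequal spread between groups was not covered. The number of arrays limits the precision. Names came from the platform's name table and RefSeq of TAIR10.1; 13513 probe sets have 1 gene. The 3 genes and the lists were chosen with earlier results of these data known. Named were the 3 genes, list genes by their tests and, per gene, the 5 most correlated genes. Alternatives were pseudocounts of 1 and 64, no filter, deposited values, median centring, a replicate block, array weights set per group, fewer arrays and each array left out. Figures used matplotlib 3.10.9 in Python 3.11.15.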

Additional observations from a re-analysis of the deposited data

How the results depend on the processing

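The MGL calls under boron and calcium loss at 2 days kept direction and threshold in all 10 cases with an array left out and all 9 other settings. Other calls were less firm. Under boron loss AHASS1 lost its call with the replicate block (−0.87, adjusted p = 0.0503), array weights (−0.87, 0.120), the 2-day arrays alone (−0.89, 0.107) and only the groups compared (−0.90, 0.233), and lay between −1.14 and −0.60 when single arrays were left out. DHAD lost it with array weights (0.82, 0.126), the 2-day arrays alone (0.83, 0.0553) and only the groups compared (0.84, 0.154), and ran from 0.67 to 0.97. Under calcium loss AHASS1 lost it with the 2-day arrays alone (−0.84, 0.0664) and ran from −1.06 to −0.56. Between the controls DHAD lost it with array weights (0.57, 0.0571) and ran from 0.54 to 0.61, and AHASS1, which ran from −0.93 to −0.43, turned to 0.082 as deposited. The difference of the MGL responses ran from 1.71 to 2.38. AHASS1 between the deficiencies turned to 0.023 as deposited and ran from −0.32 to 0.21, and DHAD at 4 days ran from −0.039 to 0.36. The fits with fewer arrays have fewer residual degrees of freedom, while the fit with array weights kept all arrays. Why calls were lost was not tested.

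Among the list genes, uncalled values under calcium loss changed sign for AT3G58610 (−0.034 as deposited, −0.031 with median centring, −0.027 to 0.22 with each array left out), AT1G14810 (−0.084, −0.081 and −0.076 to 0.098), BCAT5 (−0.016 to 0.41 with each array left out) and ARD4 (−0.35 to 0.015), and under boron loss for HMT-1 (−0.12 to 0.39). Under boron loss AT1G50110 and AT1G72810 lost their calls with array weights (adjusted p = 0.170 and 0.151), the 2-day arrays alone (0.121 and 0.0616) and only the groups compared (0.284 and 0.158). Under calcium loss MMT lost its call with the same settings (0.0631, 0.0937 and 0.0552).

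Calls over all probe sets under boron loss at 2 days numbered 1454, against 206 with array weights, 436 with the 2-day arrays alone and 46 with only the groups compared, and 738 to 2784 with each array left out. Under calcium loss they numbered 3706, against 1922 with the 2-day arrays alone and 2251 with only the groups compared, and 996 to 4221 with each array left out. Between the deficiencies they numbered 1784, against 467 and 637, and 110 to 2495. At 4 days limma gave 1 call, and 0 to 3 under the 9 settings, with 725 at an unadjusted p under 0.05. For the difference of the responses they numbered 39, against 15 with the replicate block and 11 with array weights, and 0 to 428 with each array left out. Between the controls they numbered 6118, against 14775 as deposited, and 3406 to 6522 with each array left out. Not every pair of groups deviated together by replicate number, so the numbers were not taken to pair the samples: the deviations of same-numbered arrays correlated from −0.25 to 0.23 over the 10 pairs of groups, 3 of them over 0.1 and 2 under −0.1. With the replicate block 1288 probe sets passed under boron loss at 2 days, and 1892 with the numbers of boron-deficient 2 d and control 4 d crossed, a pairing chosen after seeing the data that also brought 3 list-gene calls, 1 under boron and 2 under calcium loss, and lost none of the calls of the 3 genes in the deficiencies of 2 days.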
